A study of Populus tomentosa with 6 samples.

Results

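In leaf RNA of the Chinese white poplar, Populus tomentosa, 133 of the 27209 genes in the count table were already abundant at growth temperature and stood moderately higher under heat. They were chosen by their levels in CPM, the count of a gene per 1000000 counts of its library. A member had a control mean of at least 100 CPM and a heat mean at least 2 and less than 8 times the control mean, and its lowest heat library lay above its highest control library. The rule used the contrast of heat with control in all 6 libraries, so the levels and folds of the members describe what was chosen and are no test of it.

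The heat group comprised 3 leaf libraries from plants grown for 75 days and then moved from 25 °C to 37 °C for 2 h and to 45 °C for 5 h, with 0.5 h for each rise, starting with the light period. The control group comprised 3 leaf libraries from plants kept at day and night temperatures of 25 °C and 20 °C. All plants were raised at these temperatures with a light period of 16 h, at about 350 µmol per m2 per second, and a dark period of 8 h. The growth time of 75 days was recorded here for the heat group only. No genotype, clone or number of plants per library is given in the sources used here, nor is the hour at which control leaves were taken. Without the number of plants, the p-values below are set against a spread between libraries that may be technical. Without the hour of the control leaves, heat and time of day cannot be told apart.

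Heat above the growth range unfolds proteins in plant cells. Heat shock transcription factors then switch on genes of chaperones, proteins that hold or refold damaged clients, while transcripts of photosynthesis and growth commonly decline. Some genes switched on in this way are nearly silent beforehand, whereas housekeeping forms of the same protein families are made at all times and are increased. Whether any of the 133 genes has one of these roles could not be read from the data. Neither the count table nor the reference used here pairs its identifiers with gene names or functions. Genes are for that reason given by identifier in 2 cases and otherwise by their place in an order. Gene lengths and the labelled tissue's marker genes could not be looked up either, so levels are compared between libraries, and orders by CPM are orders of read share that were not corrected for length. Nor do the sources used here state whether the gene set counted is that of this species. Any effect of this on levels and ranks was not tested.

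Genes that met the rule were a small part of the abundant genes of these leaves. At least 100 CPM was reached in control by 2039 genes, and the 133 members were 6.52% of them. Among the remaining abundant genes, 941 had a heat mean of at most 0.5 times the control mean and 954 lay between 0.5 and 2 times. A further 9 reached at least 8 times, and 2 lay between 2 and 8 times but had overlapping groups. Genes whose lowest heat library lay above the highest control library made up 14.6% of the abundant genes and 26.9% of all 17458 tested genes.

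**Figure D1:**
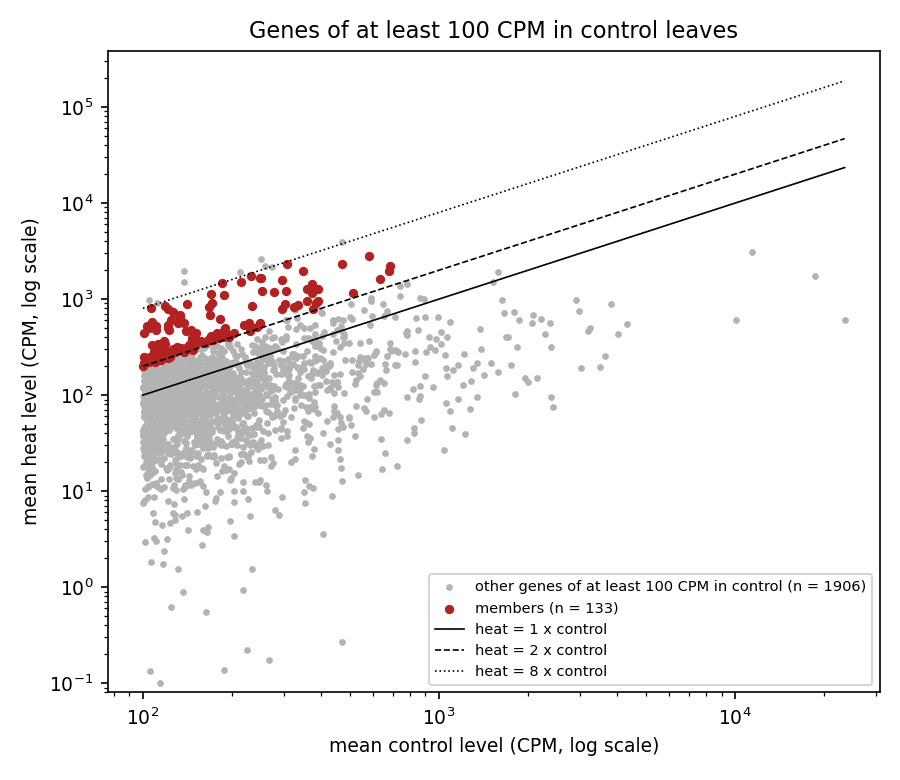
Mean level of each abundant gene in heated leaves (vertical axis, CPM, log scale) against its mean level in control leaves (horizontal axis, CPM, log scale), with members in red, the 1906 other genes of at least 100 CPM in control in grey, and lines at 1, 2 and 8 times the control level. The 133 members lie between the lines for 2 and 8 times, while the bulk of the abundant genes lies on or below the line of equal level (1 gene with a heat mean under 0.1 CPM is drawn at 0.1).

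The members held about 3.38 times as large a share of all counts under heat as in control. They took 8.51%, 8.31% and 9.26% of the counts of heat libraries 1, 2 and 3, against 2.49%, 2.92% and 2.31% in control libraries 1, 2 and 3. All 3 heat libraries lay well above all 3 control libraries, as the rule requires of each gene. The mean share was 8.69% ± 0.503 in heat and 2.57% ± 0.316 in control (SD, n = 3 each). The 941 abundant genes with a heat mean of at most 0.5 times control moved the other way, with 7.67% ± 0.549 of counts in heat and 37.4% ± 4.79 in control (SD, n = 3 each). The members together thus took a read share in heated leaves close to that of these 941 genes. CPM are shares within a library, and the total amount of RNA per leaf was not analysed here. In leaf RNA, fewer cells of a type and less RNA per cell cannot be told apart.

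Within the class, most rises were small and a minority was large. The ratio of heat mean to control mean had a median of 2.57, with quartiles at 2.25 and 4.13. A ratio of 2 to 3 was found in 83 members, 3 to 4 in 14, 4 to 5 in 16 and 5 to 8 in 20. The 20 members with the largest ratios held 2.22%, 2.30% and 2.53% of counts in heat libraries 1 to 3 and 0.334%, 0.425% and 0.351% in control libraries 1 to 3. The 83 members with the smallest ratios held 3.63%, 3.47% and 3.86% in heat and 1.49%, 1.71% and 1.39% in control. The 20 genes thus added about as much read share as the 83, from a much smaller start.

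The levels of the members spread over about an order of magnitude in each group. Their median level was 466, 424 and 479.8 CPM in heat libraries 1 to 3 and 139.8, 167 and 138 CPM in control libraries 1 to 3. The highest single value in a heat library was 3706 CPM, and the highest in a control library was 838 CPM. At least 500 CPM was reached by 59 members in heat and 5 in control, and at least 1000 CPM by 23 members in heat and 0 in control. No member had a control mean above 681 CPM, and none was among the 100 highest genes of control leaves. Members were 7.81% of the 922 genes with 100 to 150 CPM in control, 5.94% of the 404 genes with 150 to 200 CPM, 5.00% of the 340 genes with 200 to 300 CPM and 5.36% of the 373 genes at or above 300 CPM. The median ratio of members in these 4 ranges was 2.53, 2.41, 2.69 and 3.02.

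**Figure D2:**
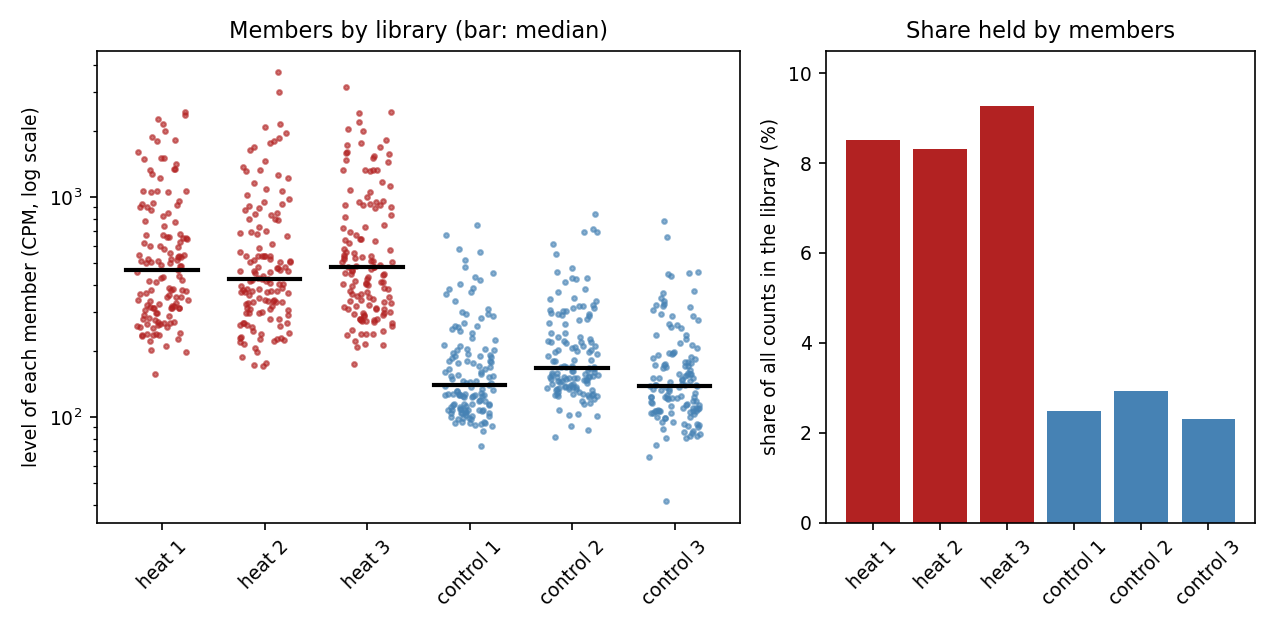
Left, the level of each of the 133 members in each library (CPM, log scale; 1 point a gene, bar at the median). Right, the share of all counts in a library held by the members together, in percent. The medians lie at 424 to 479.8 CPM in the 3 heat libraries and at 138 to 167 CPM in the 3 control libraries, and the shares at 8.31% to 9.26% and 2.31% to 2.92%.

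Ranked by mean CPM among all genes, members stood much nearer the top in heat than in control. The median member was placed 224 in heat and 1162 in control. Of the 100 highest genes, 38 were members in heat and 0 were members in control. Of the 500 highest, 120 were members in heat and 28 in control. No member was among the 10 highest genes of either group. The best place was 14 in heat and 104 in control. All 133 members were among the 1000 highest genes of heated leaves.

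All 133 members passed the filter on low counts, and edgeR's quasi-likelihood test called each of them higher in heat (Benjamini-Hochberg adjusted p below 0.05 over all tested genes). Among all tested genes 28.1% were called higher, and among tested genes of at least 100 CPM in control 15.5%. Because the same libraries chose the members, this count is a description. The adjusted p-values of the members lay between 4.14e-05 and 0.0270 in that test. Their fitted log2 fold changes ranged from 1.15 to 3.15 with a median of 1.54, against a median of -0.04 over all tested genes and -0.69 over the tested genes of at least 100 CPM in control. These fits scale libraries by TMM (trimmed mean of M-values), which raises heat relative to control by comparison with plain totals. With plain totals the median of the members was 1.36.

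The member with the highest level under heat was POPTR_0005s26260. It had 2149, 3020 and 3170 CPM in heat libraries 1 to 3, against 584, 698 and 452 CPM in control libraries 1 to 3. Its lowest heat value was 3.08 times its highest control value, so the groups were far apart. The means were 2780 ± 551 CPM in heat and 578 ± 123 CPM in control (SD, n = 3 each), and the fitted log2 change was 2.44 with a standard error of 0.28 (adjusted p = 0.000282, edgeR). It was placed 14 among all genes in heat and 137 in control.

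The member with the largest ratio was POPTR_0003s14360. It had 938, 1853 and 1611 CPM in heat libraries 1 to 3, against 195, 210.5 and 148 CPM in control libraries 1 to 3. Heat library 1 was the lowest of its group and still lay at 4.46 times the highest control library. The means were 1467 ± 474 CPM in heat and 185 ± 32.8 CPM in control (SD, n = 3 each). The ratio of 7.95 lay just under the upper limit of the rule, and the fitted log2 change was 3.15 with a standard error of 0.31 (adjusted p = 0.000143, edgeR).

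Members other than the named pair show how even or uneven the rise was among libraries. They are given by their place in the order of heat levels and were picked as extremes after their values were seen. The gene with the widest gap between the groups, placed 12 of the members by heat level, had 1507, 1458 and 1514 CPM in heat libraries 1 to 3 and 202, 221 and 218 CPM in control libraries 1 to 3. Its lowest heat value was 6.60 times its highest control value, and both groups were narrow. The gene with the lowest adjusted p, placed 28, had 876, 894 and 906 CPM in heat and 132, 152 and 140.2 CPM in control. It too varied little within either group. The gene that was steadiest in heat, placed 10, had 1607, 1639 and 1591 CPM in heat and 521, 719 and 659.5 CPM in control.

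Other members rose unevenly. The gene placed 3 by heat level had 1499, 3706 and 1700.5 CPM in heat and 288, 303 and 327 CPM in control. Heat library 2 stood at more than 2 times each of the other heat libraries. The gene most variable in heat, placed 46, had 433, 240.5 and 1057 CPM in heat and 74.3, 91.1 and 157 CPM in control. The gene most variable in control, placed 70, had 376, 507 and 446 CPM in heat and 189, 222 and 41.5 CPM in control, where library 3 stood far below the others. The gene with the highest adjusted p, placed 37, had 547, 514 and 1313 CPM in heat and 387, 431 and 306 CPM in control. Heat library 3 stood far above the other heat libraries, which lay closer to control. Without it, the fitted log2 change was 0.66 in place of 1.28, and its adjusted p was 0.0539 in place of 0.0270 (edgeR). Its adjusted p also passed 0.05 when any 1 control library was left out, at 0.0644 without control library 1, 0.0555 without control library 2 and 0.0741 without control library 3. The gene placed 70 had an adjusted p of 0.0522 without heat library 3, against 0.0220 with all libraries (edgeR). No other member lost its call when 1 library was left out.

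Such uneven members were few. The highest heat library was at least 2 times the lowest in 9 members (6.77%) and in 16.1% of the other abundant genes. For the control libraries the count was also 9 members (6.77%), against 11.1% of the other abundant genes. Keeping the groups apart was part of the rule, which leaves less room for spread among members. In 64 members both groups stayed within 1.5 times from lowest to highest library. The coefficient of variation had a median of 15.1% in heat and 17.3% in control. On the log2 CPM scale the median SD of the members was 0.22 in heat and 0.25 in control. For the 941 abundant genes with a heat mean of at most 0.5 times control it was 0.34 in heat and 0.25 in control, and for the 954 genes between 0.5 and 2 times it was 0.22 in both groups. The difference between these classes was not tested.

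Counting error was small beside the median spread of the members. For the steadiest members it need not be, since the lowest coefficients of variation were 1.52% in heat and 3.26% in control. The lowest count of any member in any library was 354, with an exact 95% Poisson interval of 318 to 393, and the highest was 28033. These intervals cover counting error only. Library totals lay between 6466647 and 8530622.

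The same rule was also applied to 2 heat and 2 control libraries at a time. The fold was then read in the heat and the control library left out. All 9 such pairs were read. They share libraries with each other, so ranges are given without a p-value. The 133 members were chosen on all 6 libraries, so the values describe the genes chosen anew and are no separate test of the members. If the libraries of a group are technical repeats, those left out are not independent of those that chose. Each choice gave 121 to 142 genes, of which 103 to 122 were among the 133 members. In the libraries left out, 97.1% to 100% of the chosen genes were higher in heat than in control. Over all genes of at least 100 CPM in the 2 choosing control libraries this share was 21.0% to 32.8%. At least 2 times the control value was found for 55.1% to 93.4% of the chosen genes, against 5.49% to 11.01% of all such abundant genes. The median log2 ratio of the chosen genes was 1.10 to 1.82 in the libraries left out and 1.35 to 1.46 in the libraries that chose them.

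**Figure D3:**
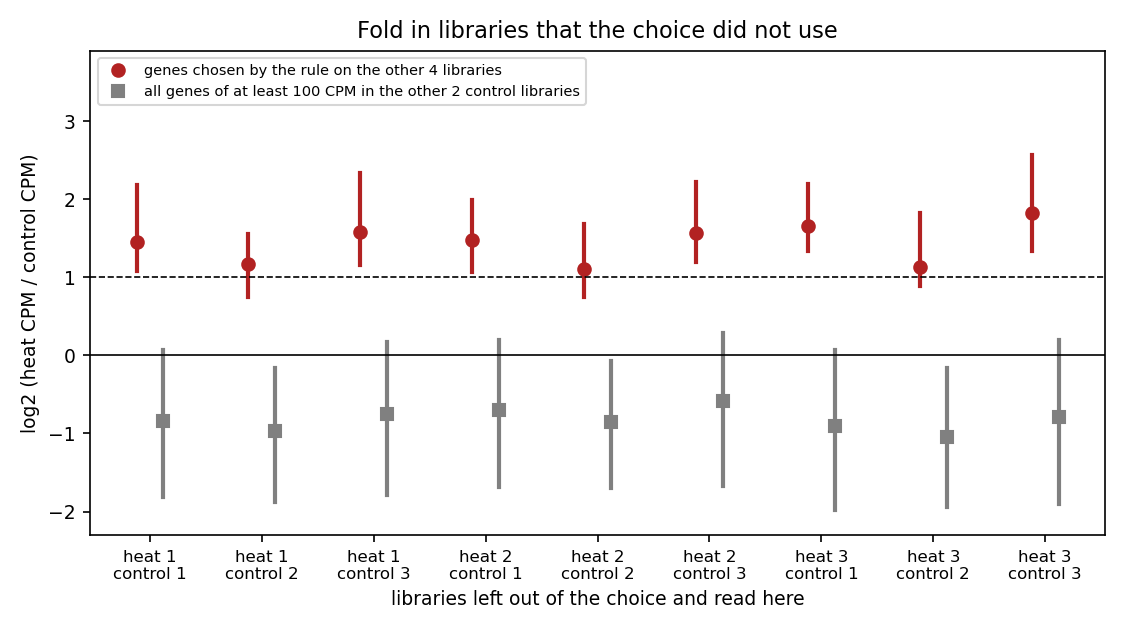
Log2 ratio of heat to control CPM in each of the 9 pairs of libraries left out of the choice (points, medians; bars, quartiles), for genes chosen by the rule on the other 4 libraries (red circles) and for all genes of at least 100 CPM in the other 2 control libraries (grey squares). Chosen genes have medians of 1.10 to 1.82 in every pair, and all such abundant genes have medians of -1.05 to -0.58.

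Which pairs gave the lowest of these values depended on the scaling. On column totals they were the pairs in which control library 2 was left out. In them, the median log2 ratio was 1.10 to 1.17 and 55.1% to 63.8% of the chosen genes reached 2 times control. With control library 1 or 3 left out, the median was 1.45 to 1.82 and 79.7% to 93.4% reached 2 times. On TMM-scaled totals the lowest values came from the pairs in which heat library 2 was left out, with a median of 1.17 to 1.36 and 64.1% to 73.8% of the chosen genes at 2 times control or more. The other 6 pairs then had medians of 1.43 to 1.72 and shares of 80.3% to 97.2%. On column totals, control library 2 also stood high for the members themselves. Of the 133 members, 98 had their highest control value there, 21 in control library 3 and 14 in control library 1. Relative to its control mean on the log2 scale, the median member lay at 0.22 in library 2, at -0.08 in library 1 and at -0.14 in library 3. The other 1906 abundant genes also lay highest in library 2, though by less, with medians of 0.05, -0.02 and -0.03 in libraries 2, 1 and 3.

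The size of the members' deviation in control library 2 depended on the scaling. Control library 2 had the largest TMM factor of the 6 libraries, 1.17, and the 941 genes with a heat mean of at most 0.5 times control held 31.9% of its counts, against 40.3% and 40.1% in control libraries 1 and 3. With TMM-scaled totals, the median member lay at 0.07 from its control mean in library 2 and 59 members had their highest control value there. The other 1906 abundant genes then lay at -0.09 from their control mean in that library. In heat, TMM-scaled totals placed the median member at -0.17 from its group mean in library 2 and at 0.15 in library 3, while the other abundant genes lay at -0.01 and -0.02. Heat library 2 then held the lowest heat value of 87 members. Under both scalings the members therefore lay nearer to the opposite group in the libraries numbered 2 than in the libraries numbered 3. What sets these libraries apart was not tested. Without both of them the rule chose 136 genes, 108 of them among the 133, and the median fitted log2 change of the members was 1.68.

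**Figure D4:**
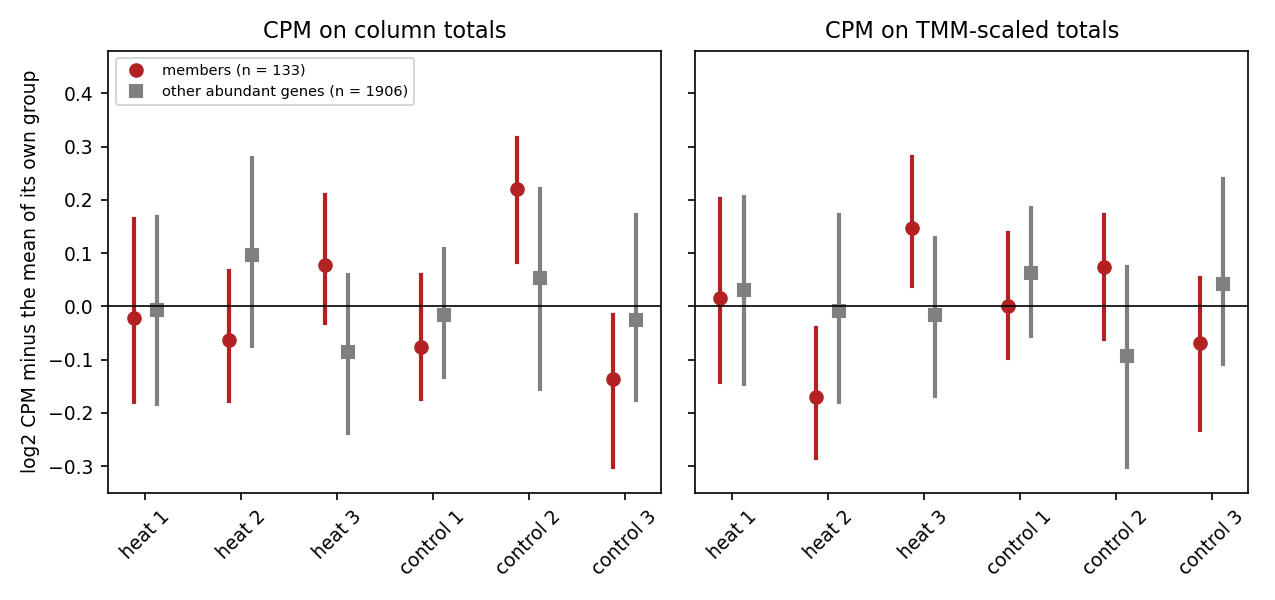
Log2 CPM of each gene minus the mean of its own group, by library (points, medians; bars, quartiles), for the 133 members (red circles) and the 1906 other genes of at least 100 CPM in control (grey squares), with CPM on column totals (left) and on TMM-scaled totals (right). The members' median in control library 2 is 0.22 on column totals and 0.07 on TMM-scaled totals, and in heat library 2 it is -0.06 and -0.17.

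Genes just inside and just outside the limits had nearly the same values. At the lower fold limit the nearest members had ratios of 2.003, 2.01 and 2.02 and the nearest genes outside 1.999, 1.995 and 1.994. At the upper limit the nearest members had ratios of 7.95, 7.53 and 7.52 and the nearest genes outside 8.002, 8.07 and 8.32. At the limit on control level the nearest members had 100.06, 100.5 and 100.7 CPM in control and the nearest genes outside 99.3, 99.3 and 97.8 CPM. The 2 genes left out because their groups overlapped had ratios of 2.36 and 2.06. The first of them had 425, 849 and 1048 CPM in heat and 246, 509.8 and 226 CPM in control, so that only control library 2 reached into the heat range. The second had 302, 150.3 and 236 CPM in heat and 111, 160.4 and 62.5 CPM in control, so that heat library 2 lay just below control library 2.

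The members were spread over the table and did not gather in a few runs of identifiers. The identifiers carry a leading number that divides the table into blocks, and members were found in 21 blocks, with 131 of them in the blocks numbered 1 to 19. Within those blocks they made up between 2.44% and 12.8% of the abundant genes, highest in block 12 (10 of 78 genes) and lowest in block 15 (2 of 82 genes). Among the tested genes, 2 pairs of members stood next to each other. How many such pairs genes drawn at random would give was not worked out. Of the 260 tested genes that stand beside a member by identifier and are not members, 77 (29.6%) were called higher and 76 (29.2%) lower in heat (edgeR, adjusted p below 0.05). Of all tested genes, 28.1% were called higher and 28.7% lower. The neighbours had a median log2 change of 0.03. Their shares lay close to those of all tested genes. Positions in the genome were not used here. Members with a near-identical copy in the genome may share reads with it, and how such reads were counted is not given in the sources used here.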

How the data were processed

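RNA sequencing counts of 3 heat and 3 control leaf libraries were analysed. The authors deposited read counts per gene, whole numbers that are neither scaled nor pooled. Per the submitters' processing notes, HTSeq 0.6.1, TopHat2 2.0.12 and CASAVA 1.8 were used, with no role stated. Genome build, annotation and strand setting: not given in the sources used here. Groups and replicate numbers came from the sample titles. None of the 27209 identifiers matched the reference table of 60139 genes (0 matches), so no gene list or marker list was applied and no sequence is shown. The members and all lists were chosen with earlier results of these data known.

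All genes were fitted with edgeR 4.0.16 in R 4.3.3 (filterByExpr, 17458 kept and 9751 left out, TMM factors, robust quasi-likelihood test, group as the only term, Benjamini-Hochberg adjustment). The test and the rule were tested on simulated data. Log2 CPM used a prior count of 2. Standard errors are the size of the log2 change divided by the square root of the test's F statistic, and are approximate. The genes given by identifier are the member with the highest heat mean and the member with the largest ratio. Alternatives were other scalings and filters, limma 3.58.1 (voom), DESeq2 1.42.0, a block for replicate number, other limits of the rule, and leaving out libraries. The precision of each count depends on the count itself, and so on both gene level and library total.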

Additional observations from a re-analysis of the deposited data

How the results depend on the processing

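The number of genes chosen followed the limits of the rule: 403 with a control mean of at least 50 CPM, 37 with at least 200 CPM, 226 with a ratio of at least 1.5 and 50 with at least 3, against 133. It was 158, 157 and 145 with TMM, DESeq2 and upper quartile scaling, of which 119, 117 and 128 were among the 133, and 126 to 142 with 1 library left out. The count of members called higher was 130 at an adjusted p below 0.01, 131 to 133 with 1 library left out, and 133 under every other scaling, filter and tool run. The same libraries chose the members, so this count was largely fixed by the choice and is a description. The share of all tested genes called higher, 28.1%, was worked out for the main fit only. The members' median log2 change of 1.54 was 1.42 with upper quartile scaling and 1.36 with library totals, 1.51 to 1.64 with 1 library left out, and 1.68 without both libraries numbered 2, a choice made after seeing the data. The members' share of counts in heat was 9.66% without the 20 most abundant genes and 9.24% on TMM-scaled totals (also chosen after seeing the data), against 8.69%. With 1 library left out it was 8.41% to 8.89% in heat and 2.40% to 2.71% in control. The deviations of same-numbered libraries correlated at 0.0487, 0.0998 and 0.178 across genes. Some libraries correlated better with another number, at 0.0509 for control 1 with heat 3 and 0.1086 for control 2 with heat 1. The remaining differently numbered pairs had negative values, down to -0.2059. The numbers were not taken to pair the libraries, and whether they do was not tested further. With the replicate block 132 members were called and the median was 1.53. The gene that lost its call under the block is the one placed 37 by heat level (adjusted p = 0.0506, edgeR). In the same-numbered pairs 1, 2 and 3 left out, the median log2 ratio was 1.45, 1.10 and 1.82. The middle of these was 1.45, against 1.47 over all 9 pairs. Depth did not limit these abundant genes as far as counting error goes.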
